A study of Danio rerio with 6 samples.

Results

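The genes described here are 58 splicing, nucleolar and RNA processing genes of the zebrafish, out of 32054 genes in the deposited count table. They are the genes whose symbol in the study's lists of gene expression begins with ddx, dhx, utp, nop, nol, snrp, sf3, srsf, hnrnp, prpf, lsm, exosc, cpsf, polr, rbm or puf60, with the germ plasm helicase ddx4 left out. The parts of those lists that were read had been shortened, and this decides what can be tested. For 34 members the symbol was read only from the list of the morphant comparison, which is sorted by significance, so the same contrast brought these genes in and their differences are given as a description with no test. The other 24 members stood in lists sorted by Ensembl identifier, so the shortening did not pick them by how they moved. These were tested 1 gene at a time, although the symbol prefixes were chosen with earlier results of these data known. Prefixes were read in lower case as the lists print them, which leaves out DDX19A (ENSDARG00000044325).

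The study asked how gene expression differs in early embryos in which MondoA is knocked down. MondoA is a glucose-sensing transcription factor of the basic helix-loop-helix leucine zipper family. Embryos were injected into the yolk at the 1-cell stage with a translation-blocking morpholino against mondoa (mondoa-mo, 3 libraries) or with a control morpholino of the same sequence with mismatched bases (mondoa-mis, 3 libraries). Whole embryos were collected at 4 hours post fertilization (hpf), when the controls were at the sphere stage, and each sample was a pool of embryos. Both groups carry a morpholino, no uninjected embryos are among the samples, and the labels give no strain. The study calls the replicates biological, but neither it nor the labels say whether the 3 libraries of a group came from separate clutches, and p-values measure the spread between these samples.

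Spliceosomes remove introns from pre-mRNA. They are built from small nuclear ribonucleoproteins (snRNPs) with their ring of Sm proteins, and the SR and hnRNP proteins bind pre-mRNA and steer the choice of splice sites. In the nucleolus RNA polymerase I makes ribosomal RNA, which the small-subunit processome and a series of DEAD-box and DEAH-box RNA helicases (the ddx and dhx genes) cut, modify and fold into ribosomal subunits, while the RNA exosome trims and destroys RNA from its 3′ end. At the blastula stage the zebrafish embryo passes from mRNA laid down by the mother to transcription of its own genome, so that the transcripts of these widely used genes are a mixture of both.

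Total counts per library lay between 20685326 and 32100726, and of 15511 genes tested 5017 changed, with 2621 higher and 2396 lower in mondoa-mo (edgeR's quasi-likelihood test, adjusted by Benjamini-Hochberg). Without mondoa-mis replicate 1, 2 or 3 the number changed was 3275, 3119 or 3173. The morphant libraries were less alike than the controls, with a biological coefficient of variation of 0.111 in mondoa-mo and 0.0193 in mondoa-mis. The transcript of the targeted gene (MLXIP, ENSDARG00000059474) was at 278, 273 and 267 CPM (counts per 1000000, scaled by TMM factors) in mondoa-mis and at 298, 327 and 349 CPM in mondoa-mo. A translation-blocking morpholino need not lower its mRNA, so this does not check the labels. Of 12 early blastoderm markers 9 were higher and 2 lower in mondoa-mo (75.0% and 16.7%). Over all genes tested the shares higher and lower were 16.9% and 15.4%. The summed level of these markers was 2154 to 2190 CPM in mondoa-mis and 2308 to 2713 CPM in mondoa-mo. Of 10 enveloping layer markers 6 were tested, with cldne higher and grhl3 lower (16.7% of the 6 each). The summed level of the 10 was 188 to 197 CPM against 100.2 to 159 CPM, while cyt1l was at 0 in every library. Of 6 germ plasm markers 4 were higher (66.7%) and buc was lower (16.7%). Their summed level, to which buc contributes most, was 1160 to 1166 CPM against 948.5 to 1081 CPM. The part of these cell types and of developmental timing in the results below was not tested, and in whole embryos fewer cells of a type and less RNA per cell cannot be told apart.

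All 58 members passed the filter on low counts, and the smallest count of any member in any library was 141, for nol4la. Their mean level in mondoa-mis ran from 10.3 CPM for nol4la to 1347 CPM for hnrnpub, with a median of 102 CPM. Per kilobase of gene length, which allows levels to be compared between genes, snrpb was highest at 623 CPM per kb in mondoa-mis and nol4la lowest at 2.59 CPM per kb. Symbols of close paralogues share sequence, and only uniquely mapped read pairs were counted, so the levels of pairs such as hnrnpa0a and hnrnpa0b are less certain than those of single genes. Whether the libraries or the counting kept strand is not given in the sources used here, and values of genes with an overlapping gene on the other strand are uncertain for that reason.

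**Figure D1:**
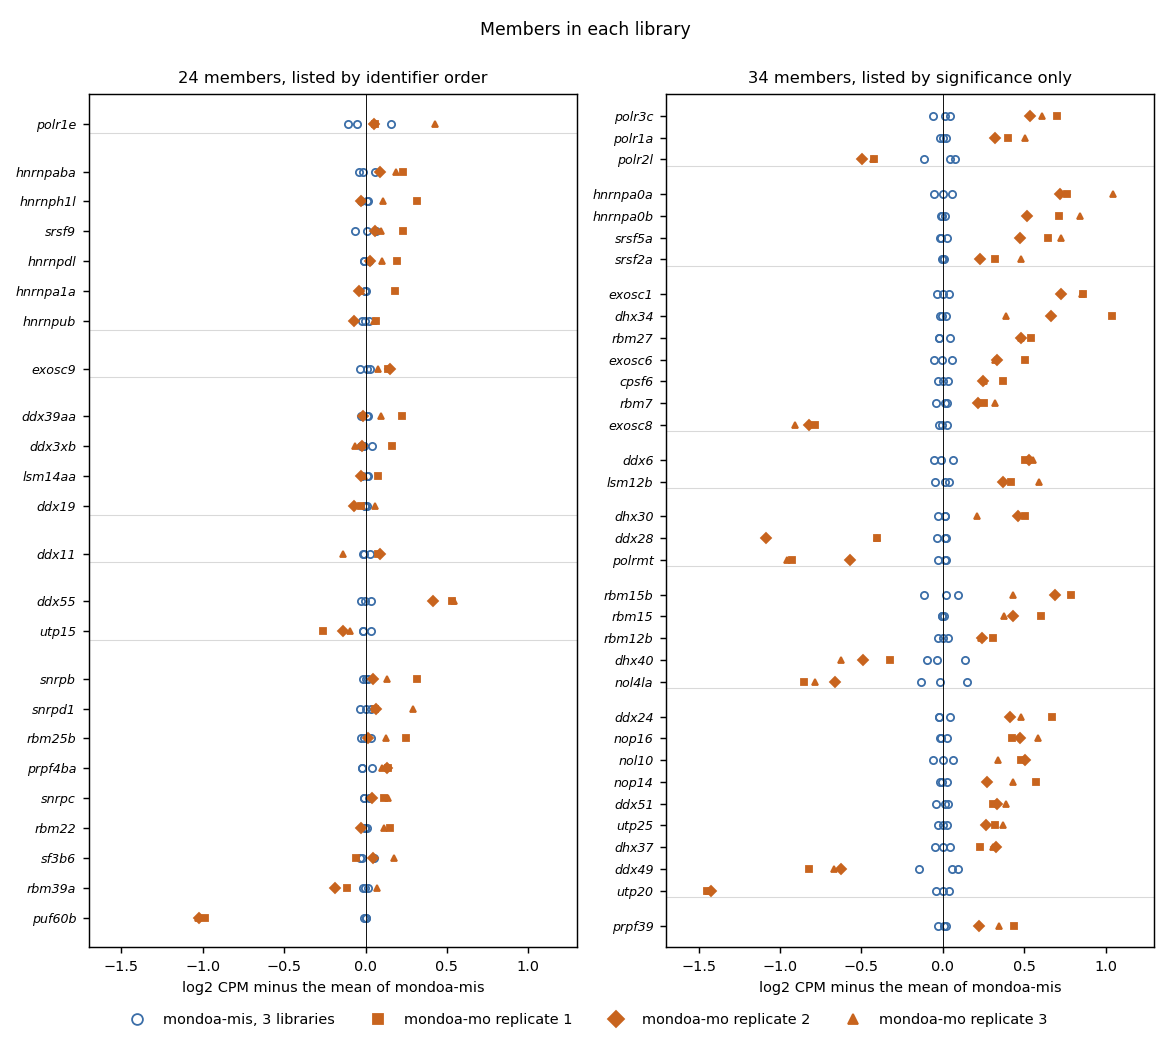
Each row is 1 member gene and the horizontal axis is its log2 CPM in a library minus the mean of the 3 mondoa-mis libraries. Open circles are mondoa-mis libraries and filled symbols the 3 mondoa-mo libraries, with members grouped by role between the grey lines. The 24 members listed by identifier order (left) lie mostly near 0 apart from puf60b and ddx55, and the 34 members chosen by significance (right) show no overlap between the groups, which their choice by this contrast favours.

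Among the 24 members listed by identifier order, 3 changed (12.5%, where 32.3% of all genes tested did). Of these 3, 2 were higher (8.33%, against 16.9% of all genes) and 1 was lower (4.17%, against 15.4%). Ddx55 and hnrnpaba rose, and puf60b fell to 49.5% of its level in mondoa-mis. Puf60b is named in the rule that chose the members, and without it 2 of 23 changed (8.70%). For 10 of the 24 no morphant library lay within the range of the controls or the reverse (41.7%, against 47.8% of all genes). Without mondoa-mo replicate 2, 10 of the 24 passed the test (41.7%, against 33.9% of all genes), and without mondoa-mo replicate 3, 7 passed (29.2%, against 36.9%). Voom with group weights called 5 (20.8%, against 34.2%). The count of 3 thus depends on the libraries and the tool used, and whether the members' share lay above or below that of all genes turned with mondoa-mo replicate 2. With 3 libraries against 3, an exact permutation test of 1 gene cannot give a two-sided p below 0.1, so the p-values come from the fit across all genes.

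Puf60b encodes a splicing factor related to U2AF that binds uridine-rich tracts and helps U2 snRNP recognise 3′ splice sites. It was at 171, 172 and 172 CPM in mondoa-mis and at 86.8, 84.5 and 84.2 CPM in mondoa-mo. The 6 values form a pair of tight, widely separated groups. The log2 fold change was −1.01 (SE 0.0441), and a fall of at least 2-fold that passed the test was found for 2.35% of all genes. Its paralogue puf60a, which is no member, went from 231 ± 4.79 CPM in the controls to 240.2 ± 19.2 CPM in the morphants (SD, n = 3 each), and its log2 fold change of 0.06 did not pass the test (SE 0.0585, adjusted p = 0.503, edgeR). Puf60b was known from earlier results of these data when the members were chosen, so its size is a description.

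Ddx55 encodes a DEAD-box helicase used in assembly of the large ribosomal subunit. It was at 27.0, 27.7 and 26.6 CPM in mondoa-mis and at 39.1, 36.1 and 39.4 CPM in mondoa-mo. Every morphant library lay above every control. The log2 fold change was 0.50 (SE 0.0674, adjusted p = 4e-04, edgeR). Hnrnpaba encodes an hnRNP A/B protein, and it was at 959, 896 and 910.4 CPM in mondoa-mis and at 1082, 979.9 and 1049 CPM in mondoa-mo. The lowest morphant library was only just above the highest control. The log2 fold change was 0.17 (SE 0.0485, adjusted p = 0.0226, edgeR), and the call was lost without mondoa-mis replicate 2 (adjusted p = 0.121) or replicate 3 (adjusted p = 0.106).

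**Figure D2:**
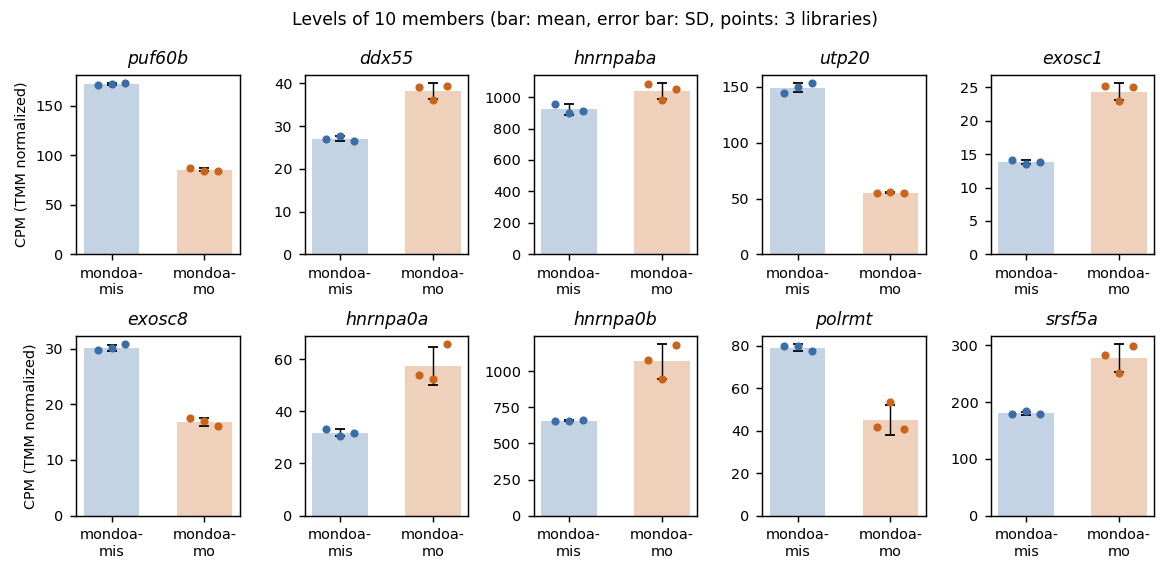
Level of 10 named members in CPM (vertical axes, each starting at 0) in mondoa-mis and mondoa-mo; bars are means of 3 libraries, error bars the SD and points the libraries. Puf60b, utp20, exosc8 and polrmt lie lower in every mondoa-mo library, and the other 6 lie higher.

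The remaining 21 of the 24 did not pass the test. Their log2 fold changes ran from −0.17 for utp15 to 0.18 for polr1e, with adjusted p-values from 0.0543 for prpf4ba to 0.907 for ddx11 (edgeR). The 95% intervals of all 21 lay between −0.29 and 0.42 on the log2 scale, so at this depth a 2-fold difference in either direction lies outside each of them. Among all 24, 20 log2 fold changes were above 0 (83.3%, where 50.4% of all genes tested were). By library size alone, without TMM factors, 15 of the 24 were above 0, and without mondoa-mo replicate 1 or 3 the number was 15 or 18.

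Of the 9 spliceosome members that were tested, 8 did not pass and puf60b did (11.1% changed, against 32.3% of all genes). The Sm protein genes snrpb and snrpd1 had log2 fold changes of 0.17 and 0.14, and snrpc, which encodes a U1 snRNP protein, had 0.10. Prpf4ba, a kinase of the spliceosome, had 0.12. The RNA-binding factors rbm25b, rbm22 and rbm39a had 0.13, 0.08 and −0.07, and sf3b6, a subunit that touches the branch point adenosine, had 0.06. The highest of these 8 adjusted p-values was 0.6 and the lowest 0.0543 (edgeR). Prpf39, which encodes a U1-associated factor and is known here only from the list sorted by significance, was at 169, 163 and 167 CPM in mondoa-mis and at 226, 194 and 211 CPM in mondoa-mo, a log2 fold change of 0.34 (SE 0.0571).

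The 6 SR and hnRNP members listed by identifier order had log2 fold changes above 0, with a median of 0.12, where the median of all genes tested was 0.00271. Hnrnpub, the member with the highest CPM before gene length is taken into account, was at 1366, 1328 and 1346 CPM in mondoa-mis and at 1407, 1284 and 1396 CPM in mondoa-mo. Its groups overlapped and its log2 fold change of 0.02 did not pass the test. Those of hnrnpa1a, hnrnpdl, srsf9 and hnrnph1l were 0.04, 0.11, 0.13 and 0.14, and these did not pass either. The signs of hnrnpub and hnrnpa1a turned when libraries were scaled by size alone, with log2 fold changes of −0.03 and −0.0023.

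The paralogues hnrnpa0a and hnrnpa0b encode hnRNP A0 proteins, and both were chosen by this contrast. Hnrnpa0a was at 33.1, 30.6 and 31.8 CPM in mondoa-mis and at 54.0, 52.4 and 65.6 CPM in mondoa-mo, a log2 fold change of 0.85 (SE 0.0888). Hnrnpa0b, far more abundant, was at 655, 654 and 665 CPM and at 1079, 943 and 1178 CPM, a log2 fold change of 0.70 (SE 0.0692). In both genes mondoa-mo replicate 2 was the lowest morphant library and replicate 3 the highest. Another gene of this kind that is no member, hnrnpa0l, was at 2720.4 ± 71.2 CPM and 3243 ± 241 CPM (SD, n = 3 each), and its log2 fold change was 0.25 (SE 0.0545, adjusted p = 0.00552, edgeR).

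Srsf5a and srsf2a encode SR proteins and were chosen by the contrast too. Srsf5a was at 178, 183 and 179 CPM in mondoa-mis and at 282, 251 and 299 CPM in mondoa-mo, a log2 fold change of 0.62 (SE 0.0617). The lowest morphant value lay far above the highest control. Srsf2a had a log2 fold change of 0.35 (SE 0.0593), from 494.5 ± 1.61 CPM to 629 ± 56.1 CPM (SD, n = 3 each).

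Ribosome assembly genes gave the member with the lowest log2 fold change of all 58. Utp20 encodes a very large HEAT-repeat protein of the small-subunit processome. It was at 145, 149.6 and 153 CPM in mondoa-mis and at 54.7, 55.6 and 54.9 CPM in mondoa-mo, which is 36.9% of the control level and a log2 fold change of −1.44 (SE 0.0482). Unlike most members, it varied less among the morphant libraries than among the controls. Utp20 was chosen by this contrast, so its size is a description.

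The other members of ribosome assembly lay on both sides of the controls. Nop14 and utp25, which encode processome proteins, had log2 fold changes of 0.43 and 0.32, and dhx37, a helicase that frees U3 snoRNA from the processome, had 0.29. Nol10 and nop16, both needed for ribosome assembly in yeast, had 0.44 and 0.49. The helicases ddx24 and ddx51 of the large-subunit pathway had 0.53 and 0.34. Utp15, an early processome protein outside the choice by significance, was at 54.6, 56.5 and 54.6 CPM in mondoa-mis and at 46.0, 50.1 and 51.7 CPM in mondoa-mo. Its groups did not overlap, but its log2 fold change of −0.17 (SE 0.0623) missed the threshold (adjusted p = 0.0651, edgeR). Ddx49, a helicase of ribosome assembly, was lower at 7.62, 8.71 and 8.47 CPM in mondoa-mo against 12.1, 14.0 and 14.4 CPM in mondoa-mis, a log2 fold change of −0.71 (SE 0.106).

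The exosome members parted in direction. Exosc1, the Csl4 cap subunit, was at 14.2, 13.5 and 13.8 CPM in mondoa-mis and at 25.1, 22.9 and 25.0 CPM in mondoa-mo, a log2 fold change of 0.82 (SE 0.0795). Exosc8, the Rrp43 subunit of the ring, was at 29.7, 30.1 and 30.8 CPM and at 17.5, 17.1 and 16.1 CPM, a log2 fold change of −0.84 (SE 0.0729). Both were chosen by the contrast, and neither gene's groups overlapped. The ring subunits exosc6 and exosc9 had 0.39 (a description) and 0.12 (adjusted p = 0.0892, edgeR).

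Other decay and 3′ end genes lay above the controls, all of them chosen by the contrast. Dhx34, a helicase of nonsense-mediated decay, was at 19.0, 19.5 and 19.2 CPM in mondoa-mis and at 39.5, 30.4 and 25.2 CPM in mondoa-mo, a log2 fold change of 0.73 (SE 0.140). Its morphant libraries were among the most widely spread of any member. Rbm27 had 0.50, cpsf6 of the cleavage factor that helps choose poly(A) sites had 0.29, and rbm7 of the nuclear exosome targeting complex had 0.26.

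Among 6 genes of mRNA export and cytoplasmic mRNA, the 4 that were tested did not pass, where 32.3% of all genes changed. Their log2 fold changes were −0.01 for ddx19, 0.01 for lsm14aa, 0.03 for ddx3xb and 0.10 for ddx39aa. Ddx19 acts in mRNA export at the nuclear pore, and was at 807, 807 and 815 CPM in mondoa-mis and at 795, 771 and 845 CPM in mondoa-mo, which spans the controls. Ddx6, a helicase of P-bodies and of translational repression, had 0.53 and lsm12b had 0.46, both as a description.

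The 3 members of mitochondrial RNA metabolism were all chosen by the contrast. Polrmt, the mitochondrial RNA polymerase, was at 80.0, 79.8 and 77.3 CPM in mondoa-mis and at 41.5, 53.2 and 40.7 CPM in mondoa-mo, a log2 fold change of −0.81 (SE 0.0933). Here mondoa-mo replicate 2 lay nearest the controls. Ddx28, which works in mitochondrial ribosome assembly, had −0.59 (SE 0.148), and dhx30 of mitochondrial RNA granules had 0.40 (SE 0.0822).

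Nuclear RNA polymerase members also differed among themselves. Polr3c, a subunit of RNA polymerase III, was at 40.9, 43.1 and 44.1 CPM in mondoa-mis and at 69.3, 61.9 and 65.0 CPM in mondoa-mo, a log2 fold change of 0.62 (SE 0.0637). The largest RNA polymerase I subunit, polr1a, had 0.41 (SE 0.0544). Polr2l, a small subunit shared by the polymerases, had −0.45 (SE 0.0768). Polr1e of RNA polymerase I was tested and had 0.18 (SE 0.120, adjusted p = 0.27, edgeR).

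Rbm15 and rbm15b encode paralogous adaptors of the machinery that methylates adenosine in mRNA (m6A). Rbm15b was at 55.3, 52.5 and 47.9 CPM in mondoa-mis and at 89.4, 83.7 and 69.8 CPM in mondoa-mo, a log2 fold change of 0.64 (SE 0.0914). Rbm15 was at 109, 108 and 108 CPM and at 165, 146 and 141 CPM, a log2 fold change of 0.48 (SE 0.0611). In both, mondoa-mo replicate 1 was the highest library and replicate 3 the lowest of the morphants. Nol4la, the least abundant member, was at 9.36, 11.4 and 10.2 CPM and at 5.70, 6.49 and 5.97 CPM, a log2 fold change of −0.77 (SE 0.116). Of the members with other or less certain roles, rbm12b had 0.26 and dhx40 had −0.47, while ddx11, a DNA helicase of sister chromatid cohesion, was tested and had 0.01.

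Over the 34 members chosen by significance, 26 lay above and 8 below the controls, with a median log2 fold change of 0.39. None of the 34 overlapped between groups, and 47.8% of all genes did not. Nothing is read from these counts, since the choice fixed them. The members with the smallest ratio of log2 fold change to SE were ddx28 (−0.59, SE 0.148), dhx30 (0.40, SE 0.0822) and dhx40 (−0.47, SE 0.0918). Just outside, among genes of the same families that the part of the list read here does not hold, were polr2m (−0.61, SE 0.119), POLR2J3 (−0.36, SE 0.0731) and rbm4.1 (0.37, SE 0.0750). HNRNPK (ENSDARG00000007034), DDX19A and rbm12ba do stand in that list with larger ratios, but under symbols that the lower-case prefixes do not match. The name rbm12ba was read from the table of gene names used below, and that list prints another symbol for it.

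Because the members were picked from shortened lists, all genes of the same symbol families were also gathered. Their symbols came from a table of zebrafish gene names or from the study's lists. These families hold 267 genes, 264 of which were tested. Names in the gene name table do not depend on the morphants, and 57 of the 58 members have such a prefix there. A gene with such a symbol only in the list sorted by significance could still enter through this contrast. The prefixes were also chosen with earlier results of these data known. All 34 members chosen by significance are among the genes counted as changed. The shares of families and complexes here and below are therefore a description. In total 82 changed (31.1%, where 32.3% of all genes did), and without mondoa-mis replicate 1, 2 or 3 the number was 54, 46 or 52. Of these, 62 were higher (23.5%, against 16.9% of all genes) and 20 lower (7.58%, against 15.4%), so 75.6% of the changed family genes were higher, where 52.2% of all changed genes were. By library size alone 72 family genes changed, of which 63.9% were higher, where 42.7% of all changed genes were. The median log2 fold change was 0.08 over the families and 0.00271 over all genes tested. The groups of 132 family genes (50.0%) did not overlap.

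The direction was not shared by all families. Of 18 srsf genes 6 rose (33.3%), and of 24 hnrnp genes 5 rose (20.8%). Of 12 snrp genes 4 rose (33.3%), and of 12 prpf genes 3 rose (25.0%), against 16.9% of all genes (edgeR). None of the genes in these 4 families fell, where 15.4% of all genes did. For families of 12 genes that share amounts to only a few genes. The 4 families are grouped here by this outcome, and no cpsf, nop or sf3 gene was called lower either. In these 4 families 0 genes were lower at an unadjusted p under 0.05, and DESeq2 and voom also called 0 lower. Of 34 ddx genes 10 rose and 4 fell (29.4% and 11.8%), and of 46 rbm genes 9 rose and 4 fell (19.6% and 8.7%). Of 33 polr genes 2 rose (6.06%, against 16.9% of all genes) and 6 fell (18.2%, against 15.4%). Of 10 utp genes only utp25 rose and only utp20 fell, and 8 of the 10 had log2 fold changes below 0.

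**Figure D3:**
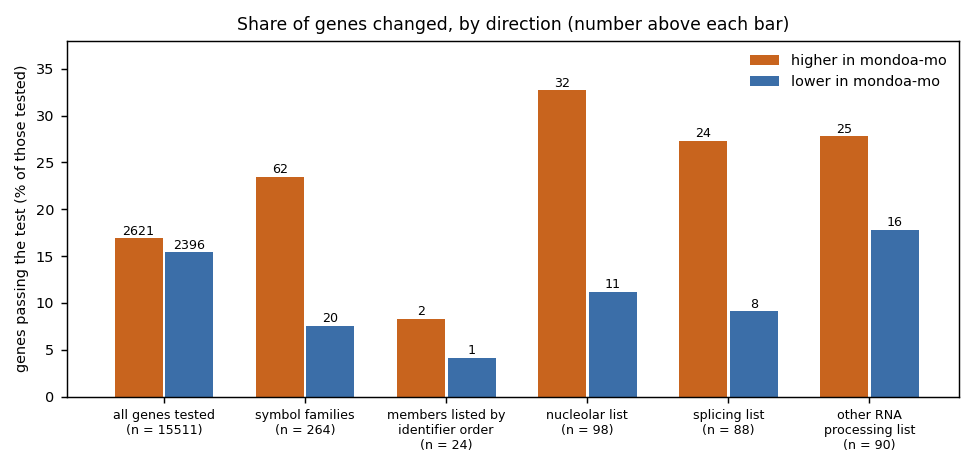
Share of genes that passed the test (vertical axis, % of the genes tested in each set) and were higher or lower in mondoa-mo, with the number of genes above each bar. In the symbol families 23.5% were higher and 7.58% lower, against 16.9% and 15.4% of all genes tested.

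The other subunits of the complexes to which members belong were read from the same families, and those named here were picked after their values were seen. Of the 10 exosome genes 4 were higher (40.0%, against 16.9% of all genes) and 1 lower (15.4% of all genes were). EXOSC10, a catalytic subunit, rose from 382 ± 4.27 to 426 ± 31.8 CPM (SD, n = 3 each), a log2 fold change of 0.16 (SE 0.0541, adjusted p = 0.047, edgeR), and EXOSC7 rose by 0.26 (SE 0.0791, adjusted p = 0.0296, edgeR). Exosc8 was the subunit that was lower. EXOSC2 and EXOSC5, with log2 fold changes of −0.12 and −0.40, did not pass (adjusted p = 0.12 and 0.0831, edgeR).

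Of 8 Sm protein genes 4 rose (50.0%, against 16.9% of all genes) and 0 were lower (15.4% of all genes were), also at an unadjusted p under 0.05 and by DESeq2 or voom. They were SNRPF (0.60, SE 0.125), SNRPG (0.49, SE 0.128), SNRPD2 (0.35, SE 0.0975) and 1 of the 2 genes named SNRPD3 (ENSDARG00000013800, 0.18, SE 0.0474), with adjusted p-values from 0.00458 to 0.0204 (edgeR). SNRPF and SNRPG were low, at 5.51 ± 0.603 and 5.92 ± 0.534 CPM in mondoa-mis (SD, n = 3 each). Of 9 SF3a and SF3b genes, SF3A2 and SF3B2 rose by 0.23 and 0.20, and SF3B1, the large core subunit, was at 475 ± 4.56 and 468.5 ± 36.4 CPM. Of the hnRNP genes the highest log2 fold change was that of a gene named HNRNPK (ENSDARG00000007034), which rose from 8.67 to 19.0 CPM, a log2 fold change of 1.13 (SE 0.106, adjusted p = 4.16e-05, edgeR). A second gene of that name, at 391 ± 11.2 CPM in mondoa-mis, had 0.13 and did not pass (adjusted p = 0.0693, edgeR).

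For the RNA polymerases, 1 of 7 genes of polymerase II (14.3%) and 3 of 10 genes of polymerase III (30.0%) changed, against 32.3% of all genes. POLR2A, the largest subunit of RNA polymerase II, was at 624 CPM in mondoa-mis against 596 ± 21.0 CPM in mondoa-mo (SD, n = 3), a log2 fold change of −0.06 (adjusted p = 0.27, edgeR). POLR2J3 was the 1 of these 7 that fell. Polr2m, which was not counted among the 7, also fell (−0.61, SE 0.119, adjusted p = 0.00332, edgeR). Of the polymerase III genes polr3c was higher, while polr3g and polr3glb fell from already low levels of 1.16 ± 0.280 and 0.581 ± 0.137 CPM in mondoa-mis.

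**Figure D4:**
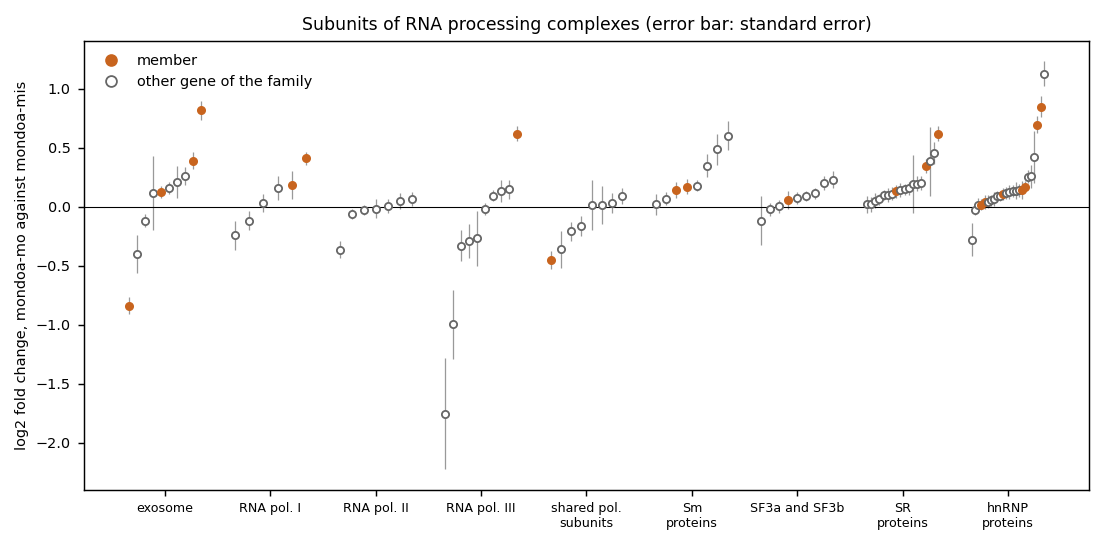
Log2 fold change of mondoa-mo against mondoa-mis (vertical axis) for every tested subunit or family gene of 9 complexes or groups, ordered by value within each; error bars are standard errors and filled circles are members. Exosc8 lies alone at the bottom of the exosome at −0.84, all 8 Sm protein genes lie above 0, and polr3glb is lowest at −1.75. Polr2m is not among the genes plotted.

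Genes of the same pathways outside the symbol families were taken from 3 lists written by hand. Of 98 nucleolar genes tested 32 rose and 11 fell, with a median log2 fold change of 0.08. Of 88 splicing genes 24 rose and 8 fell (median 0.08), and of 90 other RNA processing genes 25 rose and 16 fell (median 0.07). The shares changed were 43.9%, 36.4% and 45.6%, where 32.3% of all genes changed. Of the 49 list genes listed by identifier order, 20 rose and 8 fell (57.1% changed). Median log2 fold changes of these were 0.02 for nucleolar, 0.12 for splicing and 0.14 for other RNA processing genes. Of the 22 nucleolar ones 11 lay above 0 and 11 below. The lists were written with earlier results of these data known, and their symbols were matched in the gene name table or the study's lists. These shares are therefore a description. Bysl, a factor of small-subunit maturation, was at 22.1, 22.6 and 22.6 CPM in mondoa-mis and at 36.6, 34.5 and 38.1 CPM in mondoa-mo (log2 fold change 0.70, SE 0.0696, adjusted p = 5.78e-05, edgeR). Pno1, another small-subunit factor, was at 36.2, 38.1 and 40.5 CPM and at 22.5, 24.7 and 24.5 CPM (log2 fold change −0.68, SE 0.0744, adjusted p = 0.000104, edgeR). These 2 factors were named as the highest and lowest log2 fold changes that passed among list genes listed by identifier order. Nothing is read from their opposite directions or lack of overlap, which that choice favours. Mdn1, a very large ATPase of large-subunit assembly, rose by 0.51 (SE 0.0672, adjusted p = 0.000316, edgeR), and cnot4a, which encodes a ubiquitin ligase linked to the CCR4-NOT deadenylase, fell by 0.66 (SE 0.0691, adjusted p = 8.06e-05, edgeR).

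The members varied far more among the morphant libraries than among the controls. The median SD of log2 CPM over the 58 members was 0.0302 in mondoa-mis and 0.0960 in mondoa-mo, a ratio of 3.18. For 34 of them the choice by significance itself depends on this spread, so the values of the 58 are a description. Over the 24 members listed by identifier order the medians were 0.0227 and 0.0924, a ratio of 4.07. Over all genes the ratio was 2.11, and over the 9395 genes within the members' range of CPM it was 2.45. That set was matched only at the ends of the range, and the median of the 24 in mondoa-mis was 193 CPM. The part of expression level in these ratios was not tested. The SD was larger in mondoa-mo for 51 of the 58 members (87.9%), and for all 10 SR and hnRNP members. It was larger for 77.5% of all genes and for 83.8% of the genes within the members' range of CPM. For the 24 listed by identifier order it was larger in 23 (95.8%). The widest in mondoa-mo was ddx28, at 25.7, 16.0 and 25.6 CPM.

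The morphant libraries differed in a similar way across many members. Mondoa-mo replicate 2 was the lowest of the 3 for 33 of 58 members (56.9%, and 31.7% of all genes), and replicate 1 was the highest for 31 (53.4%, and 36.5% of the genes within the members' range of CPM). Among the SR and hnRNP members replicate 2 was the lowest in 10 of 10, with a median deviation of −0.10 from the group mean on the log2 scale, and among the nuclear RNA polymerase members in 4 of 4. Replicate 2 was lowest in 6 of 10 spliceosome members and in 4 of 6 of mRNA export and cytoplasmic mRNA. Not all groups shared this. It was lowest in 4 of 8 exosome, decay and 3′ end members and in 4 of 11 ribosome assembly members. The numbers were 1 of 3 for mitochondrial RNA and 0 of 6 for other roles. Genes are not independent replicates. Replicate 2 also had the smallest total of the 3 morphant libraries, at 21839631 counts, and the part of depth in this order was not tested.

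**Figure D5:**
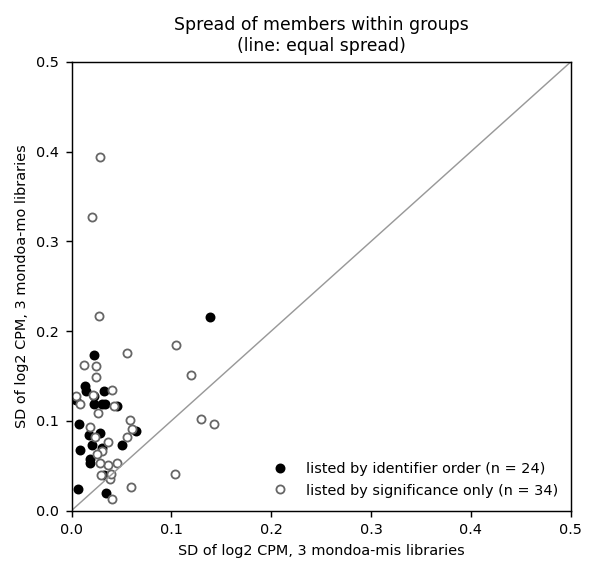
SD of log2 CPM over the 3 mondoa-mis libraries (horizontal axis) and over the 3 mondoa-mo libraries (vertical axis) for each of the 58 members, with filled circles for the 24 listed by identifier order and a line where both are equal. Of the 58 points 51 lie above the line, and 23 of the 24 filled circles do. Open circles are members chosen by significance, which depends on this spread.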

How the data were processed

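RNA of whole embryos was sequenced by the authors as TruSeq mRNA libraries, 50 nucleotides from each end in 3 lanes, mapped with STAR 2.3.8 to GRCz11 (danRer11), with SAMtools also named in the submitters' processing notes, and deposited as raw counts per gene of Ensembl 96, from read pairs with a unique place in the genome. The deposited table also gives the length of each gene, used here only for levels per kilobase, which is a value of another kind than the counts. Whether strand was used is not given in the sources used here. The lists of the study hold the authors' own fold changes and p-values, of which nothing but the symbols and the sort order was used. Symbols of other genes came from a gene name table, which names 28986 of 32054 genes, and from the lists of the study. Together these matched 98 of 102, 89 of 101 and 91 of 98 symbols of the nucleolar, splicing and other lists. No sequences are shown.

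The deposited counts were tested with edgeR 4.0.16 under R 4.3.3, using filterByExpr, TMM, the quasi-likelihood test without covariates, and Benjamini-Hochberg adjustment with a threshold of 0.05. For the SE, the absolute log2 fold change was divided by the root of the F statistic. Approximate 95% intervals are the log2 fold change ± 1.96 SE. CPM use TMM-scaled library sizes. DESeq2 1.42.0 (Wald test), limma 3.58.1 (voom with group weights), other normalizations and filters, a replicate block and leaving out each of the 6 libraries were alternatives. The test was also run on simulated data with known changes, and the outcome is not reported here. Depth was 20685326 to 32100726 counts per library. Averaged over all genes, the spread between morphant libraries exceeded counting error, with a chi-square per degree of freedom of 11.9. In mondoa-mis this value was 1.51, so the control libraries differed by little more than counting error. These averages need not hold for each gene.

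Values per library are given for members listed by identifier order that passed, for the 12 others with the largest absolute log2 fold change, for utp20, puf60b, the paralogue pairs hnrnpa0a and hnrnpa0b, rbm15 and rbm15b, and for the 2 highest and 2 lowest list genes that passed among those listed by identifier order. Other values per library, and all complexes and families, were added once the gene name table was in hand. The members and lists were chosen with earlier results of these data known.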

Additional observations from a re-analysis of the deposited data

How the results depend on the processing

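No member that passed the test changed sign under any alternative run. The log2 fold changes of the 34 members chosen by significance kept their signs too, which their choice by this contrast favours. By library size alone, log2 fold changes of members near 0 turned to −0.0023 for hnrnpa1a, −0.026 for hnrnpub, −0.014 for ddx3xb, −0.028 for lsm14aa and −0.030 for ddx11. Leaving out 1 library in turn gave −0.034 to 0.075 for hnrnpa1a, −0.0071 to 0.048 for hnrnpub, −0.042 to 0.074 for ddx3xb, −0.018 to 0.027 for lsm14aa, −0.033 to 0.083 for ddx11, −0.048 to 0.0086 for ddx19 and −0.0067 to 0.11 for sf3b6. None of these genes passed the test in the main comparison. The cause was not tested. Of the 24 members listed by identifier order, voom with group weights called 5 changed and 4 higher, and library size alone called 2 lower. Without 1 library there were 2 to 10 changed, 1 to 9 higher and 1 to 3 lower among them. In the symbol families there were 46 to 113 changed, 33 to 91 higher and 13 to 29 lower, and among all genes 3119 to 5832 changed, 1632 to 3039 higher and 1487 to 2793 lower. The lowest counts among all genes and families came without a control library and the highest without a morphant library. The replicate numbers are shared by the groups, and the deviations of same-numbered samples correlated by 0.0382, 0.0261 and 0.0473. Those of samples with different numbers correlated by −0.0361 to −0.0023. These values near 0 do not settle whether the numbers mark pairs, and the main comparison did not take the samples as pairs. With the replicate number as a block, 5281 of all genes and 88 family genes changed, and 4 of the 24 members did, snrpb being added and no other member's call changed.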

Other observations

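The genes around rbm15 and rbm15b, which belong to the m6A methyltransferase machinery, were looked at after their values had been seen. The 2 other adaptors of the writer complex in the hand-written list were lower in mondoa-mo, where 15.4% of all genes were. Wtap was at 120.3, 118 and 113 CPM in mondoa-mis and at 104, 88.0 and 79.8 CPM in mondoa-mo (log2 fold change −0.37, adjusted p = 0.00788, edgeR). Virma was at 102, 100.8 and 100.9 CPM and at 85.0, 79.3 and 79.2 CPM (log2 fold change −0.32, adjusted p = 0.000993, edgeR). The catalytic subunit gene mettl3 had −0.25 (adjusted p = 0.056, edgeR) and mettl14, its partner, had 0.03 (adjusted p = 0.595, edgeR). The same list holds 4 genes of YTH domain proteins, which bind methylated mRNA, and this grouping was made after their values had been seen. Each of the 4 passed the test and was higher, where 32.3% of all genes changed and 16.9% were higher. Their log2 fold changes were 0.60 for ythdf1, 0.33 for ythdf3, 0.31 for ythdc1 and 0.17 for ythdf2, with adjusted p-values from 3.24e-05 to 0.0471 (edgeR).

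In the splicing list the highest log2 fold changes were those of aqr, an intron-binding helicase of the spliceosome, at 39.4, 39.0 and 37.1 CPM in mondoa-mis and 84.9, 74.6 and 80.7 CPM in mondoa-mo (1.06, adjusted p = 3.11e-06, edgeR), and of srpk1a, a kinase that phosphorylates SR proteins, at 134, 129 and 131 CPM and at 236, 223 and 231 CPM (0.81, adjusted p = 1.97e-06, edgeR). The lowest was zrsr2, a factor that recognises 3′ splice sites of minor introns, at 29.0, 25.9 and 26.5 CPM and at 14.2, 17.3 and 14.6 CPM (−0.82, adjusted p = 0.00015, edgeR). These were also named after their values had been seen, and no overlap between the groups was seen for any of the 3.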
